A study of Mus musculus with 12 samples.

Results

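The genes described here are the subunits, activators and assembly chaperones of the proteasome whose mouse symbols follow the Psma, Psmb, Psmc, Psmd and Psme pattern. Of 24499 gene symbols in the count table, 44 match that pattern and 42 have at least 60 reads summed over the 12 libraries. Those 42 are the set, split into 5 immunoproteasome genes (Psmb8, Psmb9, Psmb10, Psme1 and Psme2) and 37 others. The matching symbols left out are Psmb11, a thymic catalytic subunit with 2 reads, and Psma8, a testis subunit of the outer ring with 39 reads. The rule uses only the symbol and the read total.

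The libraries hold CD11c bead-enriched cells from tumour-draining lymph nodes of mice injected with E0771-cOC tumours, a line derived from a mouse mammary carcinoma. The nodes were taken on day 9 and digested with collagenase I/IV and DNAse I, and RNA was sequenced from the 3' end of transcripts. There were 6 libraries from wildtype mice, given as C57BL6, and 6 from APOE-KO mice. All 12 come from tumour-injected animals, so no untreated node is part of the comparison. The sources used here do not give the age and sex of the mice or say whether a library is 1 animal or a pool. The p-values therefore measure the spread between these libraries, which may be partly technical.

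The proteasome is the main protease of the cytosol and nucleus. Its 20S core is a barrel of outer alpha rings, which gate the entrance, and inner beta rings, which hold the catalytic sites, and the 19S cap recognises, unfolds and feeds in ubiquitinated proteins. Interferon replaces the constitutive catalytic subunits Psmb5, Psmb6 and Psmb7 by Psmb8, Psmb9 and Psmb10 and adds the PA28 activator of Psme1 and Psme2. Dendritic cells carry much of this immunoproteasome, whose peptides load MHC class I molecules.

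Promoters were searched for motifs of interferon signals and of the stress factors that act on proteasome genes. RefSeq windows on GRCm38.p6, from 250 bases before to 50 after each annotated start, were found for 36 of the 42 genes. Psmb1, Psmb2, Psmb7, Psmc3, Psmd3 and Psmd7 had no entry. The windows printed below are those of the most abundant immune catalytic gene (Psmb8), of the one that shares its start region with a peptide transporter gene (Psmb9), of an activator with an interferon motif (Psme1), of the constitutive partner of Psmb8 (Psmb5) and of the 19S gene with the smallest p in the genotype test (Psmd8). Each is written 5' to 3' on the gene's strand. The whole windows of Psmb8, Psmb9 and Psme1 lie inside the GENCODE spans of these genes given with their values. These windows therefore hold no bases before the GENCODE start. Capitals mark a gamma-activated site in Psmb8, a GC box and then a CCAAT box in Psmb9, an interferon-stimulated response element in Psme1, an antioxidant response element in Psmb5 and a GC box in Psmd8.
Psmb8, chr17:34197945-34198244, plus strand: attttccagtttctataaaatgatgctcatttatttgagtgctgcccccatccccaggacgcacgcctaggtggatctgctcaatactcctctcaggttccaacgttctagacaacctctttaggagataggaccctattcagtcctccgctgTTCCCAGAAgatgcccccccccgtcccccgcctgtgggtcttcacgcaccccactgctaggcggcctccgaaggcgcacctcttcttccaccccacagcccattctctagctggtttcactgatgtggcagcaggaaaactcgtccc
Psmb9, chr17:34187281-34187580, minus strand: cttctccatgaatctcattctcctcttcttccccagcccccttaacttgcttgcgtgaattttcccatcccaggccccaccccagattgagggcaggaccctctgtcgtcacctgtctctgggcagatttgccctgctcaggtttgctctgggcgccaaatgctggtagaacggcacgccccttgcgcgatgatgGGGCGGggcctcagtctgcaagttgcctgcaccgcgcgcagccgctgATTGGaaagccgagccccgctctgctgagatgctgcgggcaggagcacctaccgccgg
Psme1, chr14:55578244-55578543, plus strand: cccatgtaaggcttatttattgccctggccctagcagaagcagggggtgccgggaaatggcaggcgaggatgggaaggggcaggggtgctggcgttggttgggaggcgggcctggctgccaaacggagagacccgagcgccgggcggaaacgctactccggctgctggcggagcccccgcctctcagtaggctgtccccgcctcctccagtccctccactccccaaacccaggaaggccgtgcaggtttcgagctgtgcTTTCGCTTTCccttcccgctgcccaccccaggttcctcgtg
Psmb5, chr14:54617946-54618245, minus strand: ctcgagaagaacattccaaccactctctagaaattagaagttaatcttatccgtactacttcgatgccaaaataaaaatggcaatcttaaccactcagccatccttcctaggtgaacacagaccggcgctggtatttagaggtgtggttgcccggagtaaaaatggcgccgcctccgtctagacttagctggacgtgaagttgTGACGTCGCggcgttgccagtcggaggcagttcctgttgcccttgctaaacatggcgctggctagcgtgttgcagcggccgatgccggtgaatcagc
Psmd8, chr7:29180624-29180923, minus strand: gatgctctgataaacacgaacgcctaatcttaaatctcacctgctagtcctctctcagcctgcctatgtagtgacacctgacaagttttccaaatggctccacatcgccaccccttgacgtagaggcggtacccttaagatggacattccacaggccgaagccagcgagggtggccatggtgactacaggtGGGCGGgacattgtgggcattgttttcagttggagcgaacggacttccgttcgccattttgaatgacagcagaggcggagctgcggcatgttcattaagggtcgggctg

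Motifs were searched on both strands, and a match describes letters in these windows, not a bound site. The interferon-stimulated response element, searched as GAAA, any 2 bases and GAAA, was in the windows of 4 of the 36 genes (Psmb3, Psmd4, Psmd9 and Psme1) and in 3.44% of all 32851 promoter windows. The Psme1 match fills bases 260 to 269 of its window, counted from the 5' end, and so lies after the RefSeq start. The gamma-activated site, TTCNNNGAA, was in 2 of the 36 (Psmb8 and Psmd2) and in 8.30% of all windows, and the Psmb8 match fills bases 154 to 162. The antioxidant response element, TGACNNNGC, the target of Nfe2l1 and Nfe2l2, was in 6 of the 36 (Psmb5, Psmb6, Psmc6, Psmd9, Psmd12 and Psme4) and in 12.4% of all windows. The GC box, GGGCGG, was in 22 of the 36 genes and 35.7% of all windows, and the CCAAT box in 13 of the 36 and 37.4%. Among the 5 immunoproteasome genes, 1 had the interferon-stimulated element in a window, 1 the gamma-activated site and 3 a GC box. The 36 genes have 39 windows, and a gene was counted if any of its windows held the motif. The percentages count single windows. The Psmb9 window lies head to head with that of Tap1, which encodes a subunit of the peptide transporter of class I presentation, and the 2 windows share 275 bases.

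The libraries held 2381477 to 4898360 counts, and single proteasome genes held 19 to 2949 reads in a library. Apoe, the gene removed in the knockout, had 838 to 2919 reads in the wildtype libraries and 13 to 30 in the APOE-KO libraries, which matches the labels. Itgax, which encodes CD11c, was present in every library, at 278 ± 54.0 CPM (SD, n = 6) in wildtype and 298 ± 36.9 in APOE-KO. CPM is a read count relative to the size of its library, scaled with TMM factors, which correct for differences in composition. Ribosomal RNA of Rn45s took 2.71% to 32.2% of the counts. Wildtype libraries 1 and 3 were the extremes of this share, while APOE-KO library 5, at 13.0%, was not extreme in it. These 3 libraries were set as standing apart from the rest, without a stated criterion. Several results are given also without 1 or more of them.

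Proteasome transcripts were on average slightly more abundant in APOE-KO cells, but no single gene passed the test. Across the 42 genes, 34 had a positive fitted log2 fold change (APOE-KO over wildtype) and 8 a negative one, with a median of 0.19 and a range from -0.73 to 0.45. None of the 42 reached an adjusted p under 0.05 in edgeR's quasi-likelihood test with Benjamini-Hochberg adjustment over all 10714 genes tested, where 1.49% of genes did (1.08% with higher and 0.411% with lower levels in APOE-KO). At an unadjusted p under 0.05 there were 10 of the 42, 9 higher and 1 lower in APOE-KO, beside 12.1% of all tested genes, 6.27% higher and 5.81% lower. Of all tested genes, 47.2% had a positive value and the median was -0.02. The 5 immunoproteasome genes were all positive with a median of 0.23, and 29 of the 37 others were positive with a median of 0.19. Fitted changes were small: 41 of the 42 lay within 1.5-fold in either direction, and the 95% interval lay within 2-fold for 41 and within 1.5-fold for 26. With DESeq2's Wald test in place of edgeR, 2 of the 42 passed (Psmd8 and Psmb3), beside 2.56% of all genes, and 12 had an unadjusted p under 0.05, beside 13.1%. With limma-voom 0 of the 42 passed, beside 1.56% of all genes, and 10 had an unadjusted p under 0.05, beside 13.1%.

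**Figure D1:**
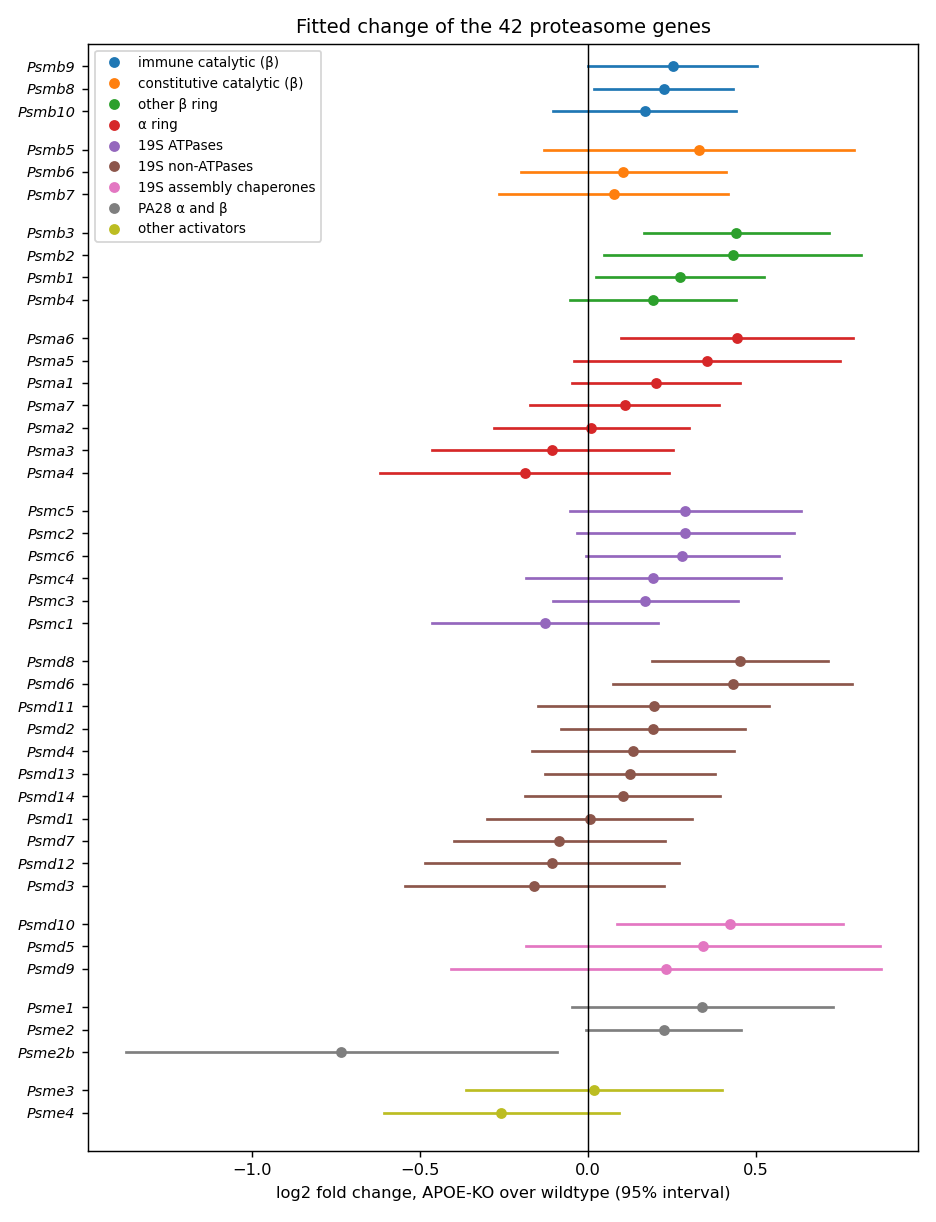
Fitted log2 fold change (APOE-KO over wildtype, horizontal axis) of each of the 42 proteasome genes, grouped by role, with points for the estimate and lines for the 95% interval. Of the 42 points, 34 lie right of 0, and Psme2b has the most negative estimate, -0.73.

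Psmb8 replaces Psmb5 at the chymotrypsin-like site and was the most abundant of the 42 transcripts in these cells. The gene lies at chr17:34197721-34201454 (GRCm38, plus strand). Its level in the wildtype libraries had a lowest value of 472 CPM, a median of 511 and a highest of 537, and in APOE-KO 566, 591 and 618. All 6 APOE-KO libraries were thus above all 6 wildtype libraries, and Psmb8 was the only one of the 42 genes whose groups did not overlap, beside 1.77% of all tested genes. The means were 507 ± 22.1 and 593 ± 20.6 CPM (SD, n = 6 each), a fitted log2 fold change of 0.23 ± 0.10 (SE), or 1.17-fold. This did not pass the test (edgeR quasi-likelihood, Benjamini-Hochberg adjusted p = 0.358).

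Psmb9 takes the place of Psmb6, the caspase-like subunit. It lies at chr17:34181987-34187764 on the minus strand. In wildtype it was at 246 CPM at the lowest, 278 at the median and 334 at the highest, and in APOE-KO at 275, 340 and 387. The groups overlapped, with 3 of 6 APOE-KO libraries above every wildtype library. The fitted change was 0.25 ± 0.12 in log2 (adjusted p = 0.408, edgeR).

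Psmb10 takes the place of Psmb7, the trypsin-like subunit. It lies at chr8:105935735-105938444 on the minus strand and had the lowest level of the immune catalytic genes. Its wildtype values were 113, 138 and 146 CPM (lowest, median, highest) and its APOE-KO values 118, 154 and 179. The groups overlapped, and the fitted change was 0.17 ± 0.13 in log2 (adjusted p = 0.674, edgeR).

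The constitutive partners were all lower in level than their immune counterparts, and none passed the test. Reads from a 3' library do not grow with transcript length, so these CPM levels are compared without division by length. Psmb5 was at 17.7 ± 4.1 CPM in wildtype and 22.5 ± 3.18 in APOE-KO (log2 0.33 ± 0.22, adjusted p = 0.609, edgeR). Psmb6 was at 136 ± 16.0 and 147 ± 31.6 CPM (0.11 ± 0.15, adjusted p = 0.848). Psmb7 was at 59.9 ± 14.3 and 63.3 ± 7.90 CPM (0.08 ± 0.16, adjusted p = 0.915). Psmb5 ranked 40 of 42 by level and has a copy with 99.6% identity over 227 of its last 300 transcript bases, so its reads may have been divided or discarded in counting.

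**Figure D2:**
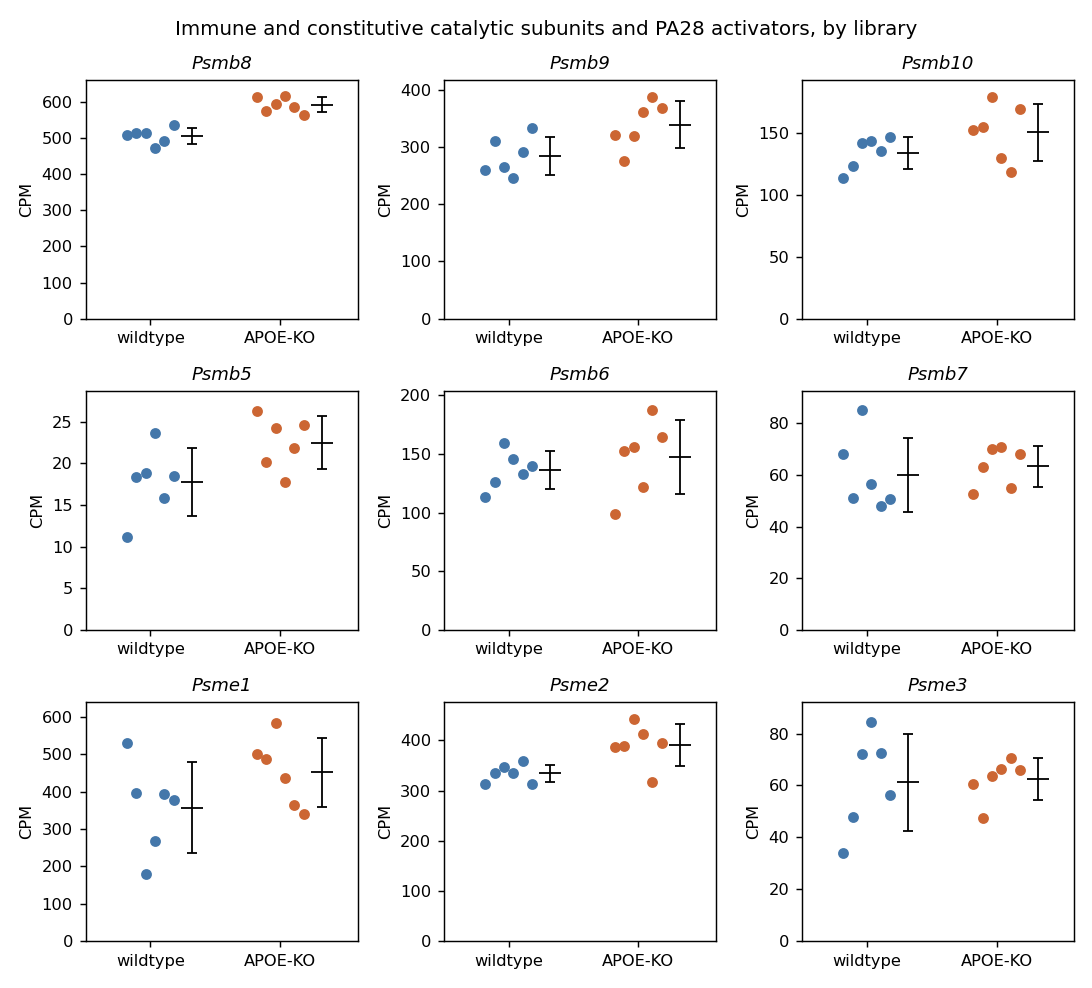
Level (CPM, vertical axes from 0) of the immune catalytic genes, their constitutive partners and the PA28 genes in each of the 6 wildtype and 6 APOE-KO libraries (points), with the mean and SD (bar) beside them. Psmb8 shows the separated groups, 472 to 537 against 566 to 618 CPM, and the points of each other gene overlap between genotypes.

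A ratio of the immune to the constitutive gene within a library needs no scaling factor and asks whether the make-up of the catalytic core differed. The Psmb8 to Psmb5 ratio of reads had a geometric mean of 29.0 in wildtype and 26.4 in APOE-KO, the Psmb9 to Psmb6 ratio 2.08 and 2.33, and the Psmb10 to Psmb7 ratio 2.27 and 2.37. The log2 differences were -0.13, 0.16 and 0.06, and the ranges of the groups overlapped for each pair (19.9 to 44.5 against 22.9 to 34.6 for Psmb8 to Psmb5). None passed a two-sided exact permutation test over all assignments of libraries to 2 groups of 6, with adjusted p-values of 0.718, 0.718 and 0.753 over the 3 ratios. With 1 library left out the differences ran from -0.24 (without wildtype library 4) to -0.011 (without wildtype library 1) for Psmb8 to Psmb5 and from 0.071 (without APOE-KO library 1) to 0.24 (without APOE-KO library 2) for Psmb9 to Psmb6, and that of Psmb10 to Psmb7 changed sign. The smallest p this design allows is 0.00216. Psmb8, Psmb9 and Psmb10 together held 81.2% ± 2.17 of the reads of the 6 catalytic genes in wildtype (SD, n = 6) and 82.3% ± 2.16 in APOE-KO (n = 6), with ranges of 77.8% to 82.9% and 80.5% to 85.9% that overlapped.

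**Figure D3:**
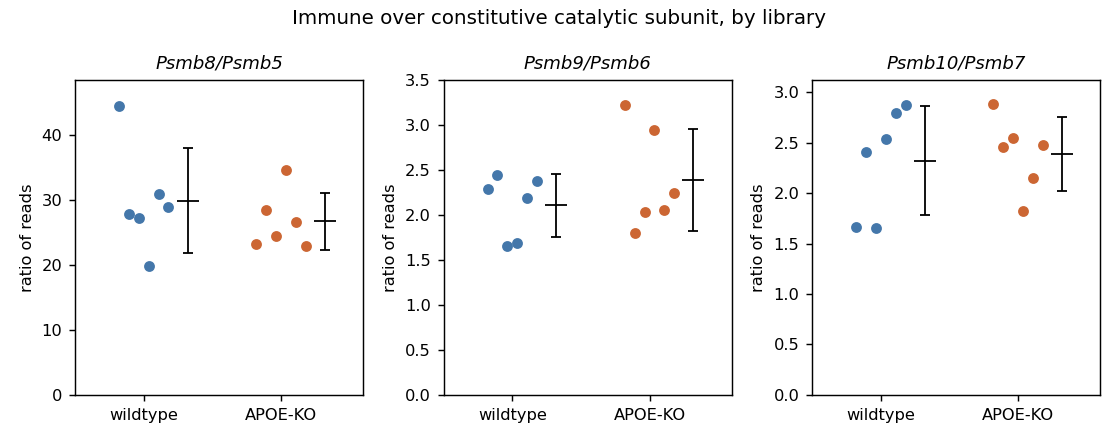
Ratio of reads of each immune catalytic gene to its constitutive partner (vertical axes from 0) in each library, with the arithmetic mean and SD. The groups overlap in every panel, and the highest Psmb8 to Psmb5 ratio, 44.5, is that of wildtype library 1.

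The noncatalytic beta genes form the rest of the inner rings and had the highest median change of the role groups. All 4 were positive, with a median of 0.35, close to the 0.34 of the assembly chaperones of the cap. Of the 4, 3 (Psmb1, Psmb2 and Psmb3) had an unadjusted p under 0.05 in edgeR. The share of all tested genes was 12.1%, with 6.27% higher in APOE-KO. None of the 4 passed the adjusted threshold in edgeR. Psmb3 was at 97.2, 126 and 137 CPM in wildtype (lowest, median, highest) and at 135, 166 and 187 in APOE-KO. Of the 6 APOE-KO libraries, 5 were above every wildtype library. The fitted change was 0.44 ± 0.13 in log2, or 1.36-fold (adjusted p = 0.114 in edgeR, 0.0320 in DESeq2, and 0.0320 to 0.831 over all alternatives). Without wildtype library 1, the lowest, it was 0.39 (adjusted p = 0.209, edgeR). Psmb4, next after Psmb8 in level at 420 CPM over all libraries, had an estimate of 0.19.

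The alpha ring genes, which form the gate of the barrel, were mixed. Of 7, 5 were positive and 2 negative, with a median of 0.11. Psma6 was at 46.7, 82.2 and 107 CPM in wildtype and at 105, 111 and 116 in APOE-KO. The wildtype libraries were widely spread and the APOE-KO libraries narrowly, and 5 of 6 APOE-KO libraries were above every wildtype one. The fitted change of Psma6 was 0.44 ± 0.17 in log2 (adjusted p = 0.242, edgeR). Without wildtype library 1, the lowest, it was 0.33 (adjusted p = 0.380, edgeR). Psma4 had the lowest estimate of the ring, with 72.9 ± 17.2 CPM in wildtype and 64.1 ± 20.6 in APOE-KO (-0.19 ± 0.21, adjusted p = 0.802).

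In the 19S cap, the ATPases that unfold substrates (Psmc1 to Psmc6) were positive for 5 of 6, with a median of 0.24 and Psmc1 at -0.13. Of 11 non-ATPase genes, which include ubiquitin receptors and the deubiquitinase Psmd14, 8 were positive, with a median of 0.13. The assembly chaperones of the cap that carry Psmd symbols (Psmd5, Psmd9 and Psmd10) were all positive, with a median of 0.34. Psmd9 and Psmd5 were the lowest of the 42 in level, Psmd9 at 14.1 CPM over all libraries.

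Psmd8, a lid subunit of the cap, had the smallest p of the 42. Its wildtype values were 170, 209 and 248 CPM and its APOE-KO values 220, 293 and 320. APOE-KO library 4 was the only one of its group inside the wildtype range. The means were 208 ± 27.5 and 285 ± 34.6 CPM, a fitted log2 fold change of 0.45 ± 0.13, or 1.37-fold (adjusted p = 0.0797, edgeR). Psmd8 was past the threshold in DESeq2 (adjusted p = 0.0182), without wildtype library 3 (0.0241), without APOE-KO library 4 (0.0481) and with the Rn45s share as a covariate (0.0135), and not in the other alternatives, which reached 0.999. Of all genes, 2.12%, 1.18% and 3.13% passed in the last 3 of these fits.

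Among the activators, the PA28 alpha gene Psme1 was positive but the most variable of the 5 immunoproteasome genes. It lies at chr14:55578123-55581529 on the plus strand and overlaps Emc9 on the other strand, which was low (5.09 ± 1.74 and 8.29 ± 3.26 CPM). Psme1 was at 181, 385 and 531 CPM in wildtype and 339, 461 and 584 in APOE-KO. The wildtype range ran from library 3 at the bottom to library 1 at the top and covered 5 of 6 APOE-KO libraries. The fitted change was 0.34 ± 0.19 in log2 (adjusted p = 0.487, edgeR). It was 0.21 without wildtype library 3, 0.48 without wildtype library 1, 0.22 with the Rn45s share as a covariate and 0.39 without the 3 libraries that stood apart, and the adjusted p ran from 0.219 to 0.999 over all alternatives.

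Psme2 encodes PA28 beta and lies near Psme1, at chr14:55587441-55591113 on the minus strand. It was at 313, 336 and 359 CPM in wildtype and 316, 392 and 443 in APOE-KO, and 5 of 6 APOE-KO libraries were above every wildtype one. APOE-KO library 5, 1 of the 3 that stood apart, was the exception. The fitted change was 0.22 ± 0.11 in log2 (adjusted p = 0.429, edgeR), and without the 3 libraries together it was 0.27 (adjusted p = 0.294, within a range of 0.274 to 0.948 over all alternatives).

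Psme2b, at chr11:48945354-48946190, is a copy of Psme2 that has 99.0% identity with it over 299 of the last 300 transcript bases, so reads of the 2 genes are hard to tell apart. It held 933 reads in all against 16216 for Psme2. Psme2b was at 28.6 ± 16.5 CPM in wildtype and 17.1 ± 6.33 in APOE-KO, and it was the 1 gene with an unadjusted p under 0.05 and a lower level in APOE-KO (-0.73 ± 0.31 in log2, adjusted p = 0.327, edgeR). Wildtype library 1, at 59.0 CPM, was far above the others of its group, and without it the estimate was -0.41 (adjusted p = 0.633, within 0.0809 to 0.972 over all alternatives).

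The other activators had estimates near or below 0. Psme3, which forms the nuclear PA28 gamma ring, was at 61.2 ± 18.6 CPM in wildtype and 62.4 ± 8.00 in APOE-KO (0.02 ± 0.18, adjusted p = 0.988, edgeR), and its sign changed between alternatives. Psme4, the nuclear activator PA200, was at 67.5 ± 17.0 and 56.1 ± 4.57 CPM (-0.26 ± 0.17, adjusted p = 0.590). The Psme1 to Psme3 ratio had a geometric mean of 5.76 in wildtype and 7.15 in APOE-KO, and the Psme2 to Psme3 ratio 5.68 and 6.26. Their log2 differences of 0.31 and 0.14 did not pass the two-sided exact permutation test (adjusted p = 0.513 for each, over 2 ratios). Over the wildtype libraries the Psme1 to Psme3 ratio followed the order of the Rn45s share, from 2.50 (library 3, 2.71%) to 15.5 (library 1, 32.2%). In APOE-KO it ran, not in exact order, from 5.13 (library 6, 12.0%) to 10.2 (library 2, 21.5%). The relation of this ratio to Rn45s was not tested. Both log2 differences moved with single libraries. With 1 library left out, that of Psme1 to Psme3 ran from 0.071 (without wildtype library 3) to 0.60 (without wildtype library 1), and that of Psme2 to Psme3 from 0.037 (without wildtype library 4) to 0.28 (without wildtype library 1). Without the 3 libraries that stood apart they were 0.46 and 0.35, with adjusted exact permutation p-values of 0.230 and 0.190.

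Summed over genes, the small estimates gave levels that did not overlap between the genotypes. The 42 genes summed to 5494, 5589 and 5993 CPM in wildtype (lowest, median, highest) and to 6289, 6366 and 6918 in APOE-KO. The means were 5682 ± 194 and 6451 ± 239 CPM, a ratio of 1.14. The 5 immunoproteasome genes summed to 1449 to 1724 CPM in wildtype and 1770 to 2120 in APOE-KO (ratio 1.19), and the 37 others to 3903 to 4285 and 4332 to 4798 (ratio 1.11). Since the genes were chosen with results known, no p is given for these sums.

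**Figure D4:**
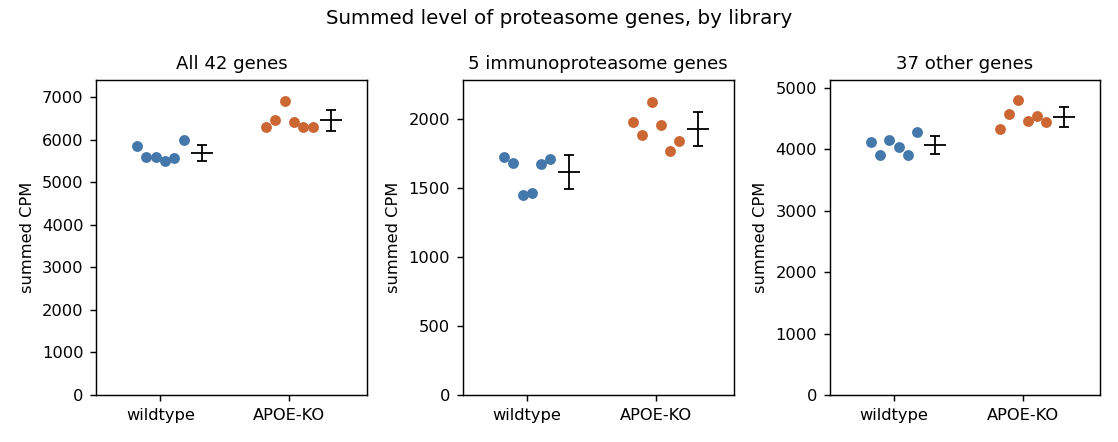
Summed CPM (vertical axes from 0) of all 42 genes, of the 5 immunoproteasome genes and of the 37 others in each library (points), with the mean and SD. In each panel the lowest APOE-KO library lies above the highest wildtype library.

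The separation of the sums depended on the scale for the larger sets. With other size factors and with totals without Rn45s the 3 sums still did not overlap. For the 37 on RLE size factors the groups almost met, at 4277 CPM (highest wildtype) and 4278 (lowest APOE-KO). On plain library totals the sums of the 42 and of the 37 overlapped (4624 to 6530 against 5885 to 6635 CPM for the 42). That of the 5 narrowly did not (1363 to 1710 against 1715 to 2077). How often sums of other gene sets of these sizes separate was not tested. The sums of the core without the 3 immune genes (ratio 1.13) and of the Psmc and Psmd genes (ratio 1.12) overlapped between genotypes on every scale. Leaving out wildtype libraries 1 and 3 and APOE-KO library 5 left the sum of the 5 at 1464 to 1708 CPM in wildtype and 1838 to 2120 in APOE-KO.

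The immunoproteasome did not take a clearly larger share of proteasome transcripts. Its 5 genes held 28.4% ± 1.77 of the reads of the 42 genes in wildtype (25.9% to 30.1%) and 29.8% ± 1.20 in APOE-KO (28.1% to 31.3%; SD, n = 6 each), ranges that overlapped. The difference of 1.37 percentage points was 0.870 without wildtype library 3. The reads of all 42 genes were 0.676% ± 0.0140 of reads other than Rn45s in wildtype (0.664% to 0.702%) and 0.753% ± 0.0138 in APOE-KO (0.745% to 0.781%), which did not overlap. As a share of all reads, Rn45s included, they were 0.462% to 0.653% and 0.589% to 0.663%, which did.

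Markers of several cell types differed between the genotypes as well. Of 8 markers of mature dendritic cells, 6 passed the test with higher levels in APOE-KO (median log2 fold change of the list 0.70), and their summed level was 3353 to 5176 CPM in wildtype and 4840 to 7642 in APOE-KO. Of 8 markers of plasmacytoid dendritic cells, 4 passed with lower levels (median -0.77, 1312 to 2867 against 1022 to 1370 CPM). Of 6 tested epithelial markers, 1 (Cdh1) passed with a lower level (median -1.68, 100 to 166 against 8.69 to 108 CPM). Among 10 markers of conventional dendritic cells 1 passed with a higher level (1158 to 1363 against 1271 to 1562 CPM), and among 10 of macrophages 2 passed with higher and 3 with lower levels. No marker of B, plasma, T or NK cells, of fibroblasts and endothelium or of proliferation passed. At an unadjusted p under 0.05 (edgeR) there were 1, 0, 0, 2, 1 and 1 of 5, 5, 7, 5, 6 and 8 tested, beside 12.1% of all tested genes. The medians of these lists were -0.06, -0.12, 0.06, -0.98, -0.34 and -0.21. All 5 tested NK cell markers were lower in APOE-KO (52.9 to 229 against 25.6 to 151 CPM for the list). Klra8, an NK cell marker, had no read in any library. In bulk samples, more cells of a type and more RNA per cell cannot be told apart, and the part of these markers in the proteasome estimates was not tested. With the mean level of the epithelial markers as a covariate, 32 of the 42 genes were positive, with a median of 0.18, and none passed. In that fit 37 of all 10714 genes passed. The epithelial markers themselves differed between the genotypes, so this fit cannot tell their part from that of genotype.

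The 42 genes did not vary together as a block. Within genotypes, the 10 pairs among the 5 immunoproteasome genes had a median correlation of log2 CPM deviations of -0.04 over the 12 libraries, from -0.33 to 0.62 (Psmb10 with Psme2). The 666 pairs among the others had a median of -0.03 and a wide range, from -0.86 to 0.87, so single pairs varied strongly together or in opposite directions. These are descriptions over libraries that share their scaling. The coefficient of variation had a median of 17.8% over the 42 genes in wildtype and 13.5% in APOE-KO, and Psmb8 had 4.37% and 3.48%.

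Some proteasome genes varied with the Rn45s share of the library. Of 42 relations of log2 CPM with the percent share of Rn45s, a comparison added after the data were seen, 6 had an adjusted permutation p under 0.05 for Pearson's r and none for Spearman's rho, whose lowest adjusted p was 0.0732. Psma7 (r = 0.93, rho = 0.80), Psme1 (0.81, 0.76), Psmc1 (0.78, 0.78) and Psmc3 (0.75, 0.60) were higher in libraries with more Rn45s, and Psma2 (-0.87, -0.73) and Psme3 (-0.84, -0.74) lower. Without wildtype libraries 1 and 3, the extremes of the Rn45s share, r was 0.81 for Psma7, 0.77 for Psme1, 0.50 for Psmc1, 0.50 for Psmc3, -0.60 for Psma2 and -0.71 for Psme3. Within genotypes r was 0.97 in wildtype and 0.87 in APOE-KO for Psma7, 0.92 and 0.66 for Psme1, and -0.97 and -0.34 for Psma2. An absolute r above 0.7 was found for 14.3% of the 42 genes and 6.24% of all 10713 tested genes besides Rn45s. For Psmb8 r was 0.13.

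**Figure D5:**
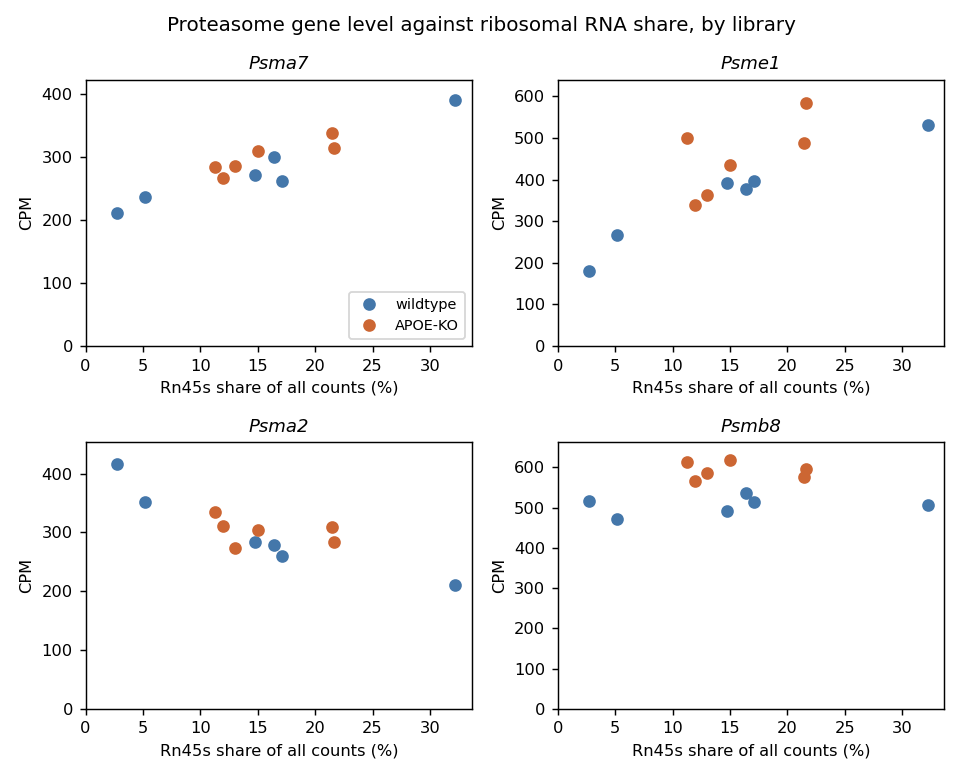
Level (CPM, vertical axes from 0) of Psma7, Psme1, Psma2 and Psmb8 against the share of counts taken by Rn45s (percent, horizontal axis), 1 point per library, coloured by genotype. Psma7 and Psme1 are higher and Psma2 lower towards the right, while Psmb8 (r = 0.13) is at 566 to 618 CPM in APOE-KO and 472 to 537 in wildtype. The APOE-KO libraries lie between 11.3% and 21.6% of Rn45s and the wildtype ones between 2.71% and 32.2%.

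In the genome, Psmb8 and Psmb9 lie in the MHC class II region on chromosome 17, interleaved with the transporter genes Tap1 and Tap2. Tap1, whose start window overlaps that of Psmb9, was at 257 ± 42.6 CPM in wildtype and 285 ± 24.2 in APOE-KO (0.15 ± 0.13 in log2, adjusted p = 0.712, edgeR). Tap2 was at 114 ± 40.9 and 122 ± 36.8 CPM (0.09 ± 0.22, adjusted p = 0.921). Both overlapped between genotypes, unlike Psmb8 between them.

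Genes that act before and after the proteasome were read from the same fit. Of 17 genes of peptide transport and class I loading, 1 passed, B2m, the light chain of class I molecules, at 3185 ± 320 CPM in wildtype and 4460 ± 599 in APOE-KO (0.49 ± 0.11 in log2, adjusted p = 0.0159, edgeR). The 6 APOE-KO libraries of B2m lay above all wildtype ones. The list's median was 0.01, with 9 genes positive and 8 negative. This list also holds peptidases, some of which are in the list of cytosolic peptidases as well. At an unadjusted p under 0.05 (edgeR) there were 3 of the 17, all higher in APOE-KO, beside 12.1% of all tested genes. None passed among 16 tested assembly factors and other regulators (median 0.04), 9 genes of proteasome gene control (0.10), 18 of ubiquitin and its shuttles (0.11), 15 of interferon control (-0.02) or 7 cytosolic peptidases (0.01). In these other lists there were 1, 1, 5, 3 and 1 genes at an unadjusted p under 0.05 (edgeR), of 16, 9, 18, 15 and 7 tested. The share of all tested genes was 12.1%. Of the 5 in ubiquitin and its shuttles, 4 were higher in APOE-KO and 1 was lower. Of the 3 in interferon control, 1 was higher in APOE-KO (Nlrc5) and 2 were lower (Irf2 at -0.31 and Irf8 at -0.32, named after their values were seen). The genes with the smallest p in these lists were Psmg4, an assembly chaperone of the core (0.44 ± 0.15, adjusted p = 0.191), Nfe2l2, the oxidative stress factor (0.37 ± 0.17, 0.386), Isg15, an interferon-induced ubiquitin-like modifier (0.67 ± 0.22, 0.165), Nlrc5, the class I transactivator (0.43 ± 0.17, 0.290), and Ide, the insulin-degrading enzyme (-0.54 ± 0.19, 0.200).

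The counting limits some of these values. Of the 42 genes, 18 overlap an annotated gene on the opposite strand and 9 one on the same strand, and the sources used here do not say whether counting used the strand. For 8 genes a copy elsewhere matches at least 100 of the last 300 transcript bases at 95% identity or more (Psmd1, Psma5, Psmb3, Psmb5, Psmd2, Psme1, Psme2 and Psme2b), so their reads may be shared or lost.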

How the data were processed

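Per the labels' protocols, 6 wildtype and 6 APOE-KO libraries were prepared from CD11c-enriched node cells with the 3' FWD kit of Lexogen. The deposited table holds raw whole-number read counts per gene symbol. The submitters' processing notes name build mm10, featureCounts 1.5.1, STAR 2.7.8a, DESeq2 1.4 and R 4.1.0, and the sources used here do not give the annotation, strand setting or treatment of reads with several matches. Each column name equals the description of 1 sample, and groups follow that sample's genotype.

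Counts were filtered with filterByExpr (minimum count 10, total 15), which left 10714 of 24499 genes, scaled with TMM factors and tested with glmQLFit and glmQLFTest on genotype (edgeR 4.0.16, limma 3.58.1, R 4.3.3), with Benjamini-Hochberg adjustment and a threshold of 0.05. SEs come from the fold change and its F statistic. CPM uses the scaled library sizes, and log2 CPM in correlations a prior count of 2. Ratios used reads plus 0.5. A count of 3 in 1 library stands for 0.525 to 1.59 CPM. The biological coefficient of variation was 30.1% (common dispersion), so the spread between libraries limits most values more than depth. The fit was tested on simulated counts. Single values were compared by exact permutation over all assignments of libraries, and correlations by 100000 resamples (scipy 1.17.1).

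Positions come from GENCODE vM21 on GRCm38, and copies from BLAST+ 2.17.0 of the last 300 transcript bases. Alternatives were limma-voom, DESeq2 1.42.0, other filters and size factors, a replicate block, robust dispersion, covariates and leaving out libraries. The genes named with full values are the 5 immunoproteasome genes, Psmb5, Psmb6, Psmb7 and Psme3, any gene past the threshold and the 3 with the smallest p in each direction, and of each other list those past the threshold and the one with the smallest p. Genes outside that rule (Psma7, Psma2, Psmc1 and Psmc3 for Rn45s, Psmb1, Psmb2, Psmb4, Psmd5, Psmd9, Tap1, Tap2, Emc9 and Itgax) were chosen after their values were seen. The genes and lists were chosen with earlier results of these data known. Every pair of libraries within a genotype differed by more than sampling noise. A planned relation of the immunoproteasome genes to 1 other gene is not reported here.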

Additional observations from a re-analysis of the deposited data

Results flagged for a closer look

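Single libraries stood apart from the other 5 of their genotype in 4 of 84 groups checked (42 genes in each genotype), by Dixon's criterion at the 95% level. Chance marks about 1 in 20 groups. Psma5, a subunit of the outer ring, was at 21.9 CPM in wildtype replicate 3, while the others were at 32.9 to 39.1. Psmd8, the cap subunit with the smallest p, was at 219.8 CPM in APOE-KO replicate 4 against 279 to 320 in the others. Psme4, the PA200 activator, was at 64.8 CPM in the same library against 52.0 to 56.2. Psma3, another outer ring subunit, was at 44.3 CPM in APOE-KO replicate 5, while the others were at 62.3 to 76.2.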

How the results depend on the processing

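All 5 immunoproteasome genes stayed positive in the 25 alternatives run, and 31 to 35 of the 42 genes were positive (31 on plain library totals). The number of genes past the threshold, 0 as reported, was 2 in DESeq2 and 0 to 1 when each library was left out in turn. It was 1 with the Rn45s share as a covariate, the fit that was not planned. Psme3 was -0.062 on library totals, -0.11 without wildtype libraries 1 and 3 and APOE-KO library 5, and between -0.097 and 0.14 with each library left out. Psmb6 was -0.19 with the epithelial covariate. The log2 difference of the Psmb10 to Psmb7 ratio was -0.13 without those 3 libraries and between -0.028 and 0.14 with each left out. With each library left out, the differences of the other ratios kept their sign. The cause was not tested. Of 375 values of the 15 named genes, 363 kept their direction and side of the threshold, 7 changed sign and 5 passed it. With the replicate number as a block, 0 genes passed and 34 were positive, the adjusted exact sign-flip p-values of the ratios were 0.781 for each catalytic pair and 0.5 for each activator pair, and no call changed. Same-numbered libraries correlated at -0.08 to 0.02, and 0 of 6 matched best with their own number, so their levels gave no sign of pairing. This cannot show whether same-numbered libraries were handled together, which the labels do not say. Depth limits Psmd9, Psmd5 and Psmb5 most, where 1 library held as few as 19 reads.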
